A study of Mus musculus with 4 samples.

Results

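Costimulatory receptors of the tumor necrosis factor (TNF) receptor superfamily, together with Icos, were followed in regulatory T cells (Tregs) sorted from omental tumors and from spleen. The 10 genes were Tnfrsf4, Tnfrsf9, Tnfrsf18, Tnfrsf1a, Tnfrsf1b, Tnfrsf8, Tnfrsf25, Cd27, Fas and Icos, chosen by symbol from the 24421 genes counted in each library. All 10 were among the 16322 genes that passed the filter on low counts. The samples are of strain B6 Foxp3-DTR/GFP, in which Foxp3-expressing cells carry a green fluorescent reporter and a diphtheria toxin receptor. CD45.1+ mice given EG7.1.15 tumor cells intraperitoneally had been joined by surgery to tumor-free CD45.1- mice, a pairing (parabiosis) in which blood is shared. At day 14 the tumor-bearing mouse of each pair was dissected, and Tregs of its partner were sorted as live, GFP-positive (Foxp3) cells that were CD4+ and CD25+, CD45.2+, and negative for B220 and CD45.1. There were 2 libraries from omental tumors and 2 from spleen, from mouse 2 and mouse 3 in both tissues, and all 4 share the reporter strain, the surgery and a host with a tumor. The labels give 1 mouse number per library, and SE and p-values rest on a spread pooled over all genes, not on the spread of the gene itself. The question was how Tregs that reach an omental tumor differ from those that reach the spleen.

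Receptors of the TNF superfamily bind trimeric ligands through cysteine-rich repeats outside the cell. Most recruit TRAF adaptors, which lead to NF-kB and to survival and proliferation of T cells, while members with a death domain can instead assemble a caspase-activating complex. Icos belongs to the CD28 family and recruits phosphoinositide 3-kinase. Tregs are known for high OX40 (Tnfrsf4), GITR (Tnfrsf18), TNFR2 (Tnfrsf1b) and ICOS, and Tregs in tumors for high CD137 (Tnfrsf9).

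Omental libraries held 6660230 and 3764508 counts in genes and spleen libraries 9989005 and 13598631. All 4 genes of the sort markers were present in every library and lay lower in both omental libraries, in counts-per-million units (CPM, scaled by TMM, a correction for library composition). Foxp3 was at 81.4 and 84.3 CPM against 113 and 144, Il2ra at 690 and 320 against 700 and 886, Cd4 at 376 and 114 against 568 and 1008, and Ptprc at 2077 and 925 against 2596 and 4034. Of these 4 markers 0 passed edgeR's test or had an unadjusted p under 0.05, and in DESeq2 and limma-voom 0 passed, with 1 at an unadjusted p under 0.05 in each. The share of all genes at that level is given below for edgeR alone. The 12 T lineage markers summed to 4644 and 4602 CPM in omental tumor of mouse 2 and mouse 3 and to 6680 and 10481 CPM in spleen. Of 11 neutrophil markers 7 were tested. As higher in omental tumor 4 passed by edgeR, 2 by DESeq2, 1 by limma-voom and 0 with the replicate block by mouse. The 10 counted summed to 113 and 1390 CPM in omental tumor against 90.4 and 60.1 in spleen, with Elane at 0 in all. Among the 4 that passed in edgeR, Csf3r and Retnlg lay higher in both omental libraries, while S100a8 and S100a9 overlapped between the tissues. S100a8 stood at 0.131 CPM in omental tumor of mouse 2 and 412 CPM in mouse 3, against 6.26 and 9.52 CPM in spleen. S100a9, at 1.58 and 475 CPM in omental tumor, likewise lay below both spleen libraries in mouse 2 and above both in mouse 3. The 12 macrophage and monocyte markers had no common direction, with 5 positive and 7 negative fold changes and a median of -0.43 on the log2 scale, and summed to 480 and 769 against 227 and 459 CPM. Of them Lyz2 and Cd14 were higher by all 3 tools and with the block. Csf1r, at 38.7 and 14.4 against 69.9 and 109.7 CPM, Mrc1 and Mertk lay lower in both omental libraries without passing. Both Lyz2 and Cd14 missed the threshold of edgeR with library totals (0.220 and 0.0720), with T lineage scaling (0.255 and 0.222) and at a minimum count of 50 (0.259 and 0.114), and Lyz2 also with RLE (0.0867) and without a filter (0.109). When 1 library was left out the adjusted p of edgeR ran from 0.0120 to 0.614 for Lyz2, losing the call without either spleen library or the omental one of mouse 3, and Cd14 lost it without that omental library (0.936) or the spleen library of mouse 2 (0.256). Of 9 fibroblast and mesothelial markers 5 were tested, and Col3a1 alone passed in edgeR and in DESeq2. All 5 had positive fold changes. In 3 of them the tissues did not overlap, on a side where 16.4% of all tested genes lay. Col3a1 overlapped, at 91.2 CPM in omental tumor of mouse 2 and 2.03 CPM in mouse 3 against 2.64 and 1.83 CPM in spleen. Its call was absent in limma-voom and in edgeR with the block (adjusted p = 0.167). The fibroblast sums were 177 and 15.7 against 13.8 and 6.95 CPM. Dendritic cell sums were 107 and 49.4 against 39.3 and 16.9 CPM, B cell sums 99.9 and 28.9 against 56.8 and 53.8, NK cell sums 15.9 and 14.9 against 8.22 and 8.14 (with Klra8 at 0 in all), mast cell sums 27.2 and 10.4 against 27.9 and 7.87, and immature T cell sums 71.0 and 63.3 against 51.5 and 46.9. The part of such cells in the values below was not tested, and in bulk libraries fewer cells of a type and less RNA per cell cannot be told apart.

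The costimulatory receptors Tnfrsf9, Icos and Tnfrsf4 stood higher in both omental libraries than in either spleen library, and Cd27, Tnfrsf25 and Fas stood lower in both. Tnfrsf18, Tnfrsf8, Tnfrsf1a and Tnfrsf1b overlapped between the tissues. None of the 10 passed edgeR's quasi-likelihood test with Benjamini-Hochberg adjustment over all genes at 0.05, and 0 had an unadjusted p under 0.05. In DESeq2 and limma-voom 0 members passed as well, with 3 at an unadjusted p under 0.05 in each. The share of all genes at that level is not given for these tools, so the 3 cannot be set against it. Over all tested genes 1.32% passed edgeR's test, 1.09% higher and 0.227% lower in omental tumor, and 9.01% had an unadjusted p under 0.05, 4.15% higher and 4.85% lower. The fold change was positive for 5 of the 10 members and for 53.6% of all tested genes. Libraries of the tissues did not overlap, on the higher side, in 3 of the 10 members and in 16.4% of all tested genes, and on the lower side in 3 members and in 25.4% of all tested genes. The median log2 fold change was 0.23 over the members and 0.11 over all tested genes. The smallest absolute log2 fold change that passed was 2.78, above that of every member, and a gene that missed the threshold is not shown to be level.

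**Figure D1:**
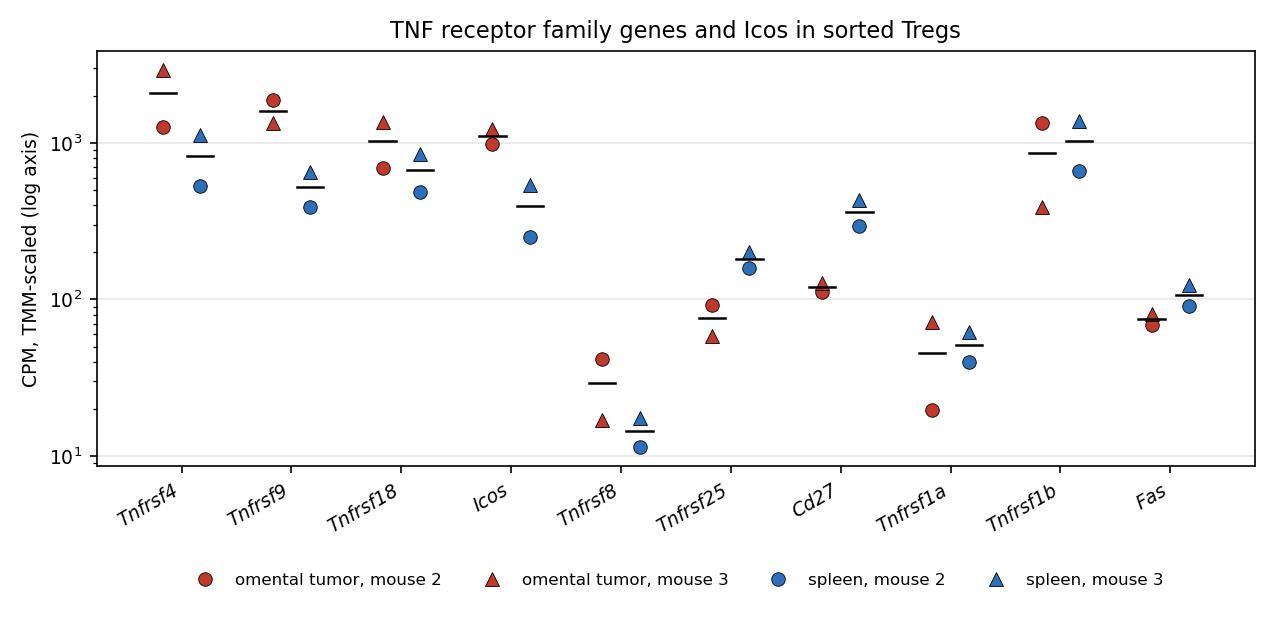
Level of each gene in CPM, on a log axis, in the 2 omental tumor libraries (red) and the 2 spleen libraries (blue); circles are mouse 2, triangles mouse 3, and bars the mean of each tissue. Tnfrsf4, Tnfrsf9 and Icos lie higher in both omental libraries, Cd27, Tnfrsf25 and Fas lower, and Tnfrsf1b spreads from 388 to 1339 CPM within omental tumor.

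Tnfrsf4 encodes OX40, which sustains activated T cells after antigen contact. In omental tumor its level was 1258 CPM for mouse 2 and 2931 CPM for mouse 3, and the spleens gave 531 and 1118 CPM. Both omental values lay above both spleen values, the closest being 1258 against 1118 CPM. The means were 2094 ± 1183 and 824 ± 415 CPM (SD, n = 2), a log2 fold change of 1.34 with an SE of 0.93 (edgeR, adjusted p = 0.719).

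Tnfrsf9 encodes CD137, an activation-induced receptor that marks recently stimulated T cells. Its level was 1877 and 1333 CPM in omental tumor of mouse 2 and mouse 3, against 388 and 649 CPM in spleen. Every omental value exceeded every spleen value, by at least 684 CPM. With means of 1605 ± 385 and 519 ± 184 CPM (SD, n = 2), it had the most positive log2 fold change of the 10, 1.63 with an SE of 0.92 (edgeR, adjusted p = 0.615).

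Icos encodes a receptor for ICOS ligand on antigen-presenting and stromal cells, and supports effector Tregs. It was counted at 976 and 1231 CPM in omental tumor and at 250 and 540 CPM in spleen. The omental libraries lay close together and both above spleen, by at least 435 CPM. The tissue means were 1103 ± 181 and 395 ± 205 CPM (SD, n = 2), a log2 fold change of 1.48 with an SE of 0.90 (edgeR, adjusted p = 0.652).

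Tnfrsf18 encodes GITR, which is constitutively high on Tregs and shares adaptors with OX40. Its values were 695 and 1358 CPM in omental tumor and 484 and 850 CPM in spleen. Within each mouse the omental library was the higher one, but the omental library of mouse 2 lay below the spleen library of mouse 3. The log2 fold change of 0.62 had an SE of 0.89 (edgeR, adjusted p = 0.858), and it was -0.0306 once the omental library of mouse 3 was set aside. Divided by library gene totals alone, its levels were 795 and 1425 CPM against 495 and 683 CPM and no longer overlapped.

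Tnfrsf8 encodes CD30, a receptor of activated lymphocytes, and had the lowest mean of the 10 in both tissues on a per-length scale. The omental tumor of mouse 2 gave 41.9 CPM, that of mouse 3 gave 16.96 CPM, and the spleens 11.4 and 17.6 CPM. With TMM scaling the omental library of mouse 2 alone stood apart. Divided by library gene totals alone, the levels of Tnfrsf8 were 47.9 and 17.8 CPM against 11.6 and 14.1 CPM and did not overlap. The log2 fold change was 1.03 with an SE of 0.79 (edgeR, adjusted p = 0.756), from log2 ratios of 1.80 within mouse 2 and -0.05 within mouse 3.

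Cd27 encodes the receptor for CD70 and is a marker of resting and central T cells that is shed or lost upon strong activation. It stood at 111 and 128 CPM in omental tumor and at 294 and 433 CPM in spleen. Both omental values lay below both spleen values and close to each other. The means of 120 ± 12.2 and 363 ± 97.8 CPM (SD, n = 2) gave the most negative log2 fold change of the 10, -1.60 with an SE of 0.84 (edgeR, adjusted p = 0.572).

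Tnfrsf25 encodes DR3, the receptor for TL1A, which carries a death domain yet expands Tregs when engaged. Its level was 92.7 and 58.7 CPM in omental tumor, against 159 and 201 CPM in spleen. The tissues did not overlap. The log2 fold change was -1.25 with an SE of 0.80 (edgeR, adjusted p = 0.688), and the log2 ratio was -0.77 within mouse 2 and -1.76 within mouse 3.

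Fas encodes CD95, the death receptor that limits activated T cells. It was counted at 69.0 and 80.8 CPM in omental tumor and at 90.9 and 123 CPM in spleen. The tissues were close but did not overlap, and the log2 fold change was -0.51 with an SE of 0.78 (edgeR, adjusted p = 0.864). It turned to 0.0215 with upper-quartile factors, where the median of all tested genes was 0.60.

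The receptors for TNF itself gave no common direction. Tnfrsf1a, the death-domain receptor TNFR1, had omental values of 19.7 CPM (mouse 2) and 71.6 CPM (mouse 3), on either side of its spleen values of 39.8 and 61.9 CPM. Tnfrsf1b, the Treg-enriched receptor TNFR2, stood at 1339 and 388 CPM in omental tumor of mouse 2 and mouse 3 and at 660 and 1388 CPM in spleen. For Tnfrsf1b the log2 ratio of omental tumor to spleen was 1.02 within mouse 2 and -1.84 within mouse 3, and for Tnfrsf1a it was -0.98 and 0.21. The fitted log2 fold changes were -0.16 (SE 0.75) for Tnfrsf1a and -0.25 (SE 0.89) for Tnfrsf1b, with edgeR adjusted p of 0.958 and 0.945. Both signs turned under other scalings, to 0.44 for Tnfrsf1a and 0.22 for Tnfrsf1b with upper-quartile factors, where the median of all tested genes was 0.60. Neutrophil markers summed to 113 CPM in the omental library of mouse 2, where Tnfrsf1b was high, and to 1390 CPM in that of mouse 3, where it was lowest, while T lineage markers summed to 4644 and 4602 CPM; their part in the result was not tested.

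**Figure D2:**
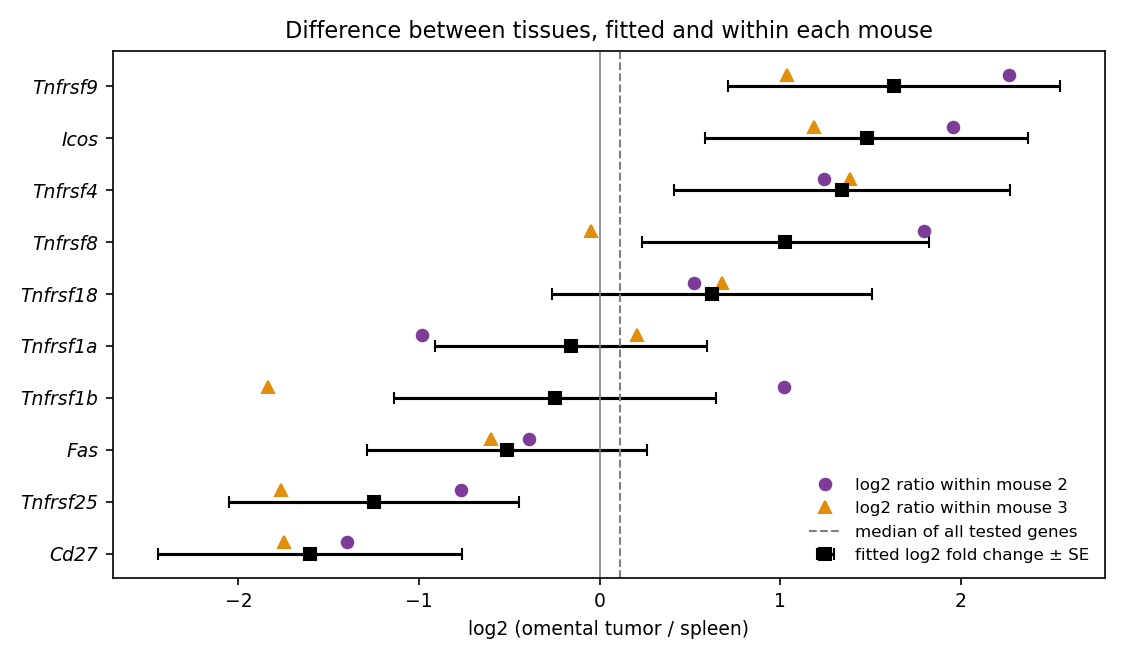
Log2 difference between omental tumor and spleen for each gene: black squares are fitted log2 fold changes with SE bars, circles and triangles the log2 ratio of CPM + 1 within mouse 2 and mouse 3, and the dashed line the median of all tested genes, 0.11. Tnfrsf4, Tnfrsf9, Tnfrsf18 and Icos lie above 0 in both mice, Cd27, Tnfrsf25 and Fas below 0 in both, and Tnfrsf1a, Tnfrsf1b and Tnfrsf8 differ in sign between the mice.

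Levels were compared between genes per kilobase of exon, from the exon lengths of GENCODE vM21. On this scale Tnfrsf4 was the highest of the 10 in both tissues, at 1534 ± 867 CPM per kilobase in omental tumor and 604 ± 304 in spleen (SD, n = 2). Tnfrsf18 came next in both, at 674 ± 308 and 437 ± 170 CPM per kilobase. In omental tumor it was followed by Tnfrsf9 at 590 ± 141 and Icos at 322 ± 52.6, and in spleen by Tnfrsf1b at 268 ± 135 and Tnfrsf9 at 191 ± 67.6. Cd27 held place 6 in omental tumor, at 51.3 ± 5.22, and place 5 in spleen, at 156 ± 42.0. Icos held place 4 in omental tumor and place 6 in spleen, at 115 ± 59.8. Between them and the lowest lay Tnfrsf25, at 33.2 ± 10.5 in omental tumor and 79.1 ± 13.3 in spleen, and Fas, at 36.3 ± 4.02 and 51.8 ± 10.97. The lowest were Tnfrsf1a, at 17.6 ± 14.2 and 19.6 ± 6.01, and Tnfrsf8, at 8.505 ± 5.09 and 4.18 ± 1.27 CPM per kilobase. In omental tumor the libraries of neighbours in this order overlapped for Tnfrsf18 and Tnfrsf9, for Icos and Tnfrsf1b, and from Fas through Tnfrsf25 and Tnfrsf1a to Tnfrsf8. In spleen each neighbour overlapped the next from Tnfrsf4 down to Tnfrsf25, and Fas, Tnfrsf1a and Tnfrsf8 were separate below them. That overlap is between mice, since within each spleen library the order of all 10 was the same. In omental tumor the order differed between the mice, with Tnfrsf9 above Tnfrsf18 and Tnfrsf1b above Icos in mouse 2 and the reverse in mouse 3. Tnfrsf25 likewise lay above Fas and Tnfrsf1a in mouse 2 and below both in mouse 3. Tnfrsf8 lay above Tnfrsf1a in mouse 2, at 12.1 against 7.60 CPM per kilobase, and below it in mouse 3.

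A second view needs no scaling between libraries: the share of each gene in the summed counts of the 10, which came to 49349 and 30007 for the omental libraries and to 29723 and 58805 for the spleen libraries. These shares add to the whole, so a gene that takes more leaves less for the rest. Cd27 made up 1.71% (95% Wilson interval 1.60 to 1.83) and 1.69% (1.55 to 1.84) of them in omental tumor, and 10.1% (9.78 to 10.5) and 8.04% (7.82 to 8.26) in spleen. Icos took 15.1% and 16.2% of the omental sums and 8.61% and 10.0% of the spleen sums, and Tnfrsf9 29.0% and 17.5% against 13.4% and 12.1%. Fas made up 1.07% and 1.06% against 3.13% and 2.28%. No 95% interval of the 10 genes was wider than 1.1 percentage points, and these intervals cover counting error only. By share, 2 members were higher and 5 lower in both omental libraries, where 4.13% of all tested genes were higher and 43% lower on the same scale. Tnfrsf4 overlapped here, with 19.4% and 38.6% of the omental sums against 18.3% and 20.8%.

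T lineage markers summed to less in both omental libraries, and the counts were also set against the summed counts of the 12 T lineage genes. Tnfrsf9 then stood at 404 and 290 counts per 1000 T lineage counts in omental tumor, where the spleens gave 58.2 and 61.9. Icos stood at 210 and 267 against 37.5 and 51.6, and Tnfrsf4 at 271 and 637 against 79.5 and 107. On this scale the spleen libraries of the mice lay close together, and Tnfrsf18 separated as well, at 150 and 295 against 72.4 and 81.1. So did Tnfrsf8, at 9.02 and 3.69 against 1.70 and 1.68. Cd27 was the sole member lower in both omental libraries, at 23.9 and 27.8 against 44.1 and 41.3, while Tnfrsf25 overlapped, at 20.0 and 12.8 against 23.7 and 19.2. Fas moved to the higher side, at 14.9 and 17.5 against 13.6 and 11.7 counts per 1000. In all 6 members were higher and 1 lower, on a scale where 41.3% of all tested genes were higher and 6.98% lower. Fitted on this scale by edgeR, 0 members and 0 of all genes passed, with an adjusted p of 0.289 for Tnfrsf9 and of 0.312 for Icos. The median of all tested genes was 0.89 in that fit. It left 5 members at an unadjusted p under 0.05. The share of all genes at that level is not given for this scale, so the 5 cannot be set against it.

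**Figure D3:**
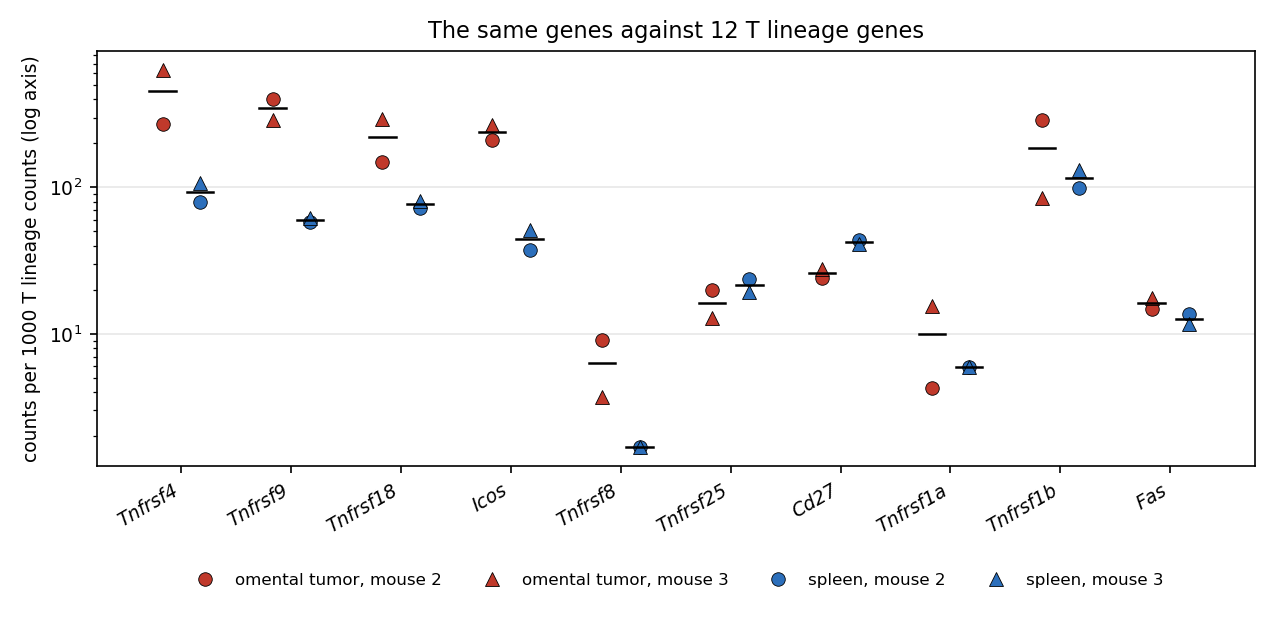
Counts of each gene per 1000 summed counts of 12 T lineage genes, on a log axis, with libraries marked by color (tissue) and shape (mouse) and bars at the tissue means. Tnfrsf9 stands at 404 and 290 in omental tumor against 58.2 and 61.9 in spleen, and Cd27 is the sole member lower in both omental libraries.

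Of the 10 genes 6 lie on chromosome 4, 2 on chromosome 6, 1 on chromosome 19 and 1 on chromosome 1 (GRCm38, the assembly also called mm10). Tnfrsf4 (156013843 to 156016612) and Tnfrsf18 (156026164 to 156028895) are direct neighbours on chromosome 4, 9551 bases apart. Tnfrsf1b (145213463 to 145246870) and Tnfrsf8 (145267137 to 145315164) are also neighbours there, 20266 bases apart. Tnfrsf9 (150914562 to 150946102) and Tnfrsf25 (152115934 to 152120119) complete that chromosome. On chromosome 6, Cd27 (125232622 to 125237010) and Tnfrsf1a (125349362 to 125362484) are 112351 bases apart, with Ltbr between them. Fas lies on chromosome 19 (34290666 to 34327772) and Icos on chromosome 1 (60977927 to 61000320), with Ctla4 as the nearest coding gene to its left. Exons of Tnfrsf18 share 414 bases, 27.2% of its exon length, with the antisense gene Gm16008, and the library kit did not mark strand, so reads of these genes cannot be told apart there.

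RefSeq promoter windows of GRCm38.p6 were searched over the 250 bases before each start site, on both strands, for the NF-kB consensus and for the AP-1 motif TGANTCA, the binding sites of factors that act downstream of these receptors and of the T cell receptor. Windows were found for 9 of the 10 members, 11 in all, and not for Icos. The NF-kB consensus lay in 3 of the 11 windows, those of Tnfrsf9, Tnfrsf8 and Tnfrsf25, and in 5% of all 32851 windows. The AP-1 motif lay in 3, those of Tnfrsf9, Tnfrsf8 and Fas, and in 6.75% of all windows. Tnfrsf9, the member with the most positive fold change, held both close to its downstream start site, the NF-kB match from 43 to 33 and the AP-1 match from 15 to 9 bases before it. That window lies inside the annotated gene, and 81 of its 250 bases, the last ones among them, lie in a UTR of Tnfrsf9. The other window of Tnfrsf9, upstream of this one, held neither motif. The matches are shown with capitals for the matched bases, at chr4:150927950-150927972 and chr4:150927978-150927996, plus strand.
Tnfrsf9 NF-kB: gcagctGGGGATTTCCCaggagg
Tnfrsf9 AP-1: ctcagtTGAGTCAcaggtc
The window of Tnfrsf8 (chr4:145315165-145315414, minus strand) held both motifs farther out, and that of Cd27 (chr6:125237028-125237277, minus strand), the member with the most negative fold change, held neither. Those of Tnfrsf4 and Tnfrsf18, with positive fold changes, held neither as well, and Tnfrsf25 and Fas, with 1 motif each, had negative ones. Capitals again mark the matches.
Tnfrsf8: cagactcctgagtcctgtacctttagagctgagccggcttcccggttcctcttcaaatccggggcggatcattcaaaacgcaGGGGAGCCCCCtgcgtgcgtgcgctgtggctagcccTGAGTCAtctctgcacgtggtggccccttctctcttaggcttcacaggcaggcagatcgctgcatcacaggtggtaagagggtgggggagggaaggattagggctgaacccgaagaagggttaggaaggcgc
Cd27: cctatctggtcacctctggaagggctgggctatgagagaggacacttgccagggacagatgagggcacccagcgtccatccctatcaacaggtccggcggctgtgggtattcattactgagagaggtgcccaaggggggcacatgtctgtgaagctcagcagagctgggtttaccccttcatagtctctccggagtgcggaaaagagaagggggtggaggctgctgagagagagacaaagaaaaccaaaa
In Tnfrsf8 the NF-kB matches overlap and span 168 to 158 bases before the start, and the AP-1 match spans 132 to 126. The forkhead motif TGTTTAC lay in 0 of the 11 windows and in 3.17% of all. A match is a run of letters and not a measured binding site, and its absence from a window says nothing of the factor.

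Among the remaining TNF receptor superfamily genes, 17 of 19 were tested, 1 passed the test and it fell. Of all tested genes 0.227% passed on that side. The passing receptor gene was Relt, a lymphoid receptor of less defined function. Relt stood at 7.88 and 8.10 CPM in omental tumor and at 57.4 and 59.5 CPM in spleen, so that within each tissue the mice lay close together. Its log2 fold change was -2.87 with an SE of 0.82 (edgeR, adjusted p = 0.0400). Leaving out any 1 of the 4 libraries ended the call, with adjusted p from 0.0728 to 0.520. Tnfrsf19, a receptor better known from epithelial and neural tissue, stood at 10.4 and 5.32 CPM in omental tumor and at 0.783 and 1.10 CPM in spleen, from 79, 21, 8 and 12 counts. It missed the threshold (edgeR, adjusted p = 0.327) and passed with the replicate block by mouse (adjusted p = 0.0203) and in DESeq2 (adjusted p = 0.0473). Ltbr, the lymphotoxin beta receptor, which lies between Cd27 and Tnfrsf1a, was near the limit of counting with 11, 16, 4 and 1 counts (edgeR, adjusted p = 0.503). The list median was 0.64 on the log2 scale, beside 0.11 for all tested genes.

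Ligands were far lower than their receptors in these libraries, with a summed level of 121 and 144 CPM in omental tumor and 256 and 282 CPM in spleen, against 6478 and 7597 CPM and 2909 and 5381 CPM for the 10 members; these sums do not correct for length. Of 10 ligand genes tested, 1 passed edgeR's test as lower and 0 as higher, beside 0.227% and 1.09% of all tested genes. Lta, which encodes lymphotoxin alpha, a ligand of TNFR1 and TNFR2, fell from 89.5 and 87.9 CPM in spleen to 6.43 and 15.7 CPM in omental tumor. Its log2 fold change was -3.01 (SE 0.82, edgeR adjusted p = 0.0226), and the call ended when any library but the omental one of mouse 3 was left out, at 0.115 (omental, mouse 2), 0.437 (spleen, mouse 2) and 0.506 (spleen, mouse 3). CD30 ligand (Tnfsf8) stood at 25.5 and 17.5 CPM in omental tumor and at 76.3 and 101 CPM in spleen (edgeR, adjusted p = 0.281). CD137 ligand (Tnfsf9) stood at 27.96 and 28.9 CPM in omental tumor and at 5.58 and 10.4 CPM in spleen (edgeR, adjusted p = 0.465). For both ligands the tissues did not overlap, Tnfsf8 lying lower and Tnfsf9, like its receptor, higher in omental tumor. Of the 10 ligands 4 lay lower and 1 higher in this way, beside 25.4% and 16.4% of all tested genes. Cd70, the ligand of CD27, stood at 1.18 and 12.2 CPM in omental tumor and at 0.489 and 2.47 CPM in spleen.

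**Figure D4:**
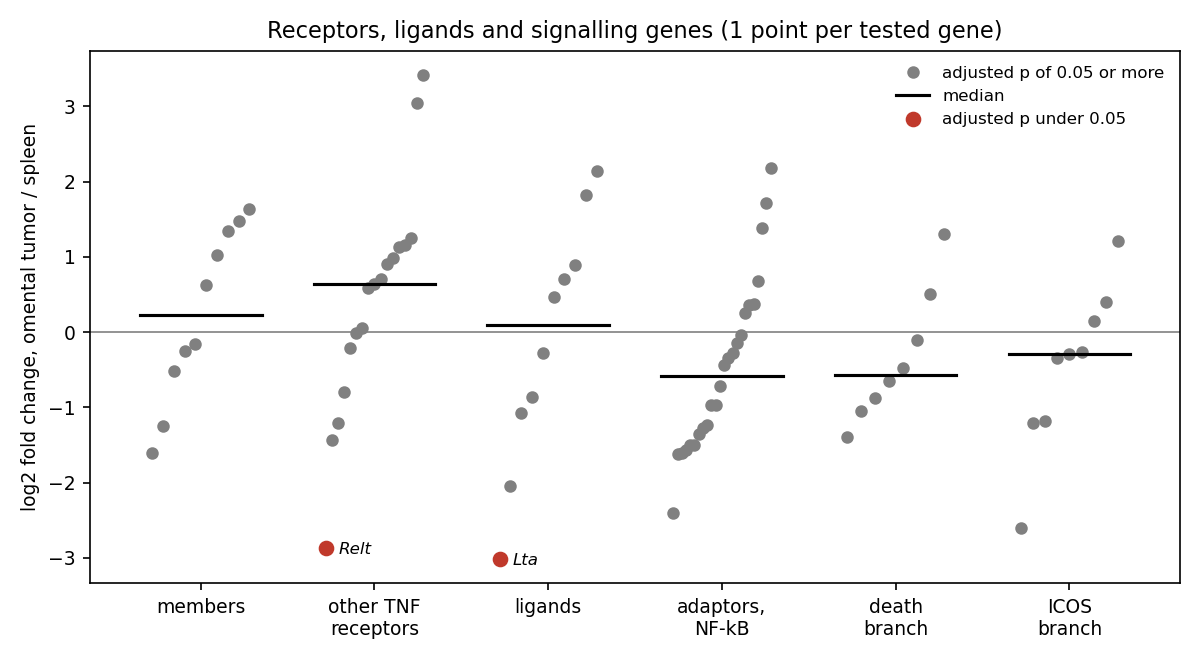
Log2 fold change of omental tumor against spleen for each tested gene of the members and of 5 related lists; bars are list medians and red points passed edgeR's test at an adjusted p of 0.05. Relt among the receptors and Lta among the ligands are the passing genes.

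Signalling genes downstream of the receptors showed no passing gene in edgeR. Of 24 adaptor and NF-kB genes 0 passed, with 2 higher and 3 lower at an unadjusted p under 0.05, and 2 passed in DESeq2 and 0 in limma-voom. In edgeR 4.15% of all tested genes were higher and 4.85% lower at that unadjusted level. The list median was -0.58. Tnfaip3, which encodes the NF-kB feedback inhibitor A20, stood at 929 and 381 CPM in omental tumor and at 179 and 111 CPM in spleen (edgeR adjusted p = 0.336, DESeq2 adjusted p = 0.0313). The NF-kB subunit gene Rel stood at 403 and 166 CPM against 89.1 and 84.8 CPM (adjusted p = 0.517). Traf5, an adaptor of OX40, CD27 and CD30, lay on the other side, at 24.7 and 12.9 CPM in omental tumor against 89.9 and 110 CPM in spleen (edgeR adjusted p = 0.129, DESeq2 adjusted p = 0.0262). Rnf31, a subunit of the linear ubiquitin ligase, stood at 47.9 and 31.6 against 116 and 121 CPM (edgeR, adjusted p = 0.545).

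Genes of the death branch below Fas and TNFR1 held 0 passing genes of 8 in edgeR, with 0 at an unadjusted p under 0.05, and 0 in DESeq2 and in limma-voom. Casp8, the initiator caspase, stood at 143 and 156 CPM in omental tumor and at 321 and 466 CPM in spleen (edgeR, adjusted p = 0.648), on the same side as Fas. Genes that act with ICOS or on its transcript held 0 passing genes of 9 in edgeR. At an unadjusted p under 0.05, 0 were higher and 1 was lower, beside 4.15% and 4.85% of all tested genes. That gene, Pik3cd, encodes the p110 delta catalytic subunit of phosphoinositide 3-kinase. It stood at 249 and 35.7 CPM in omental tumor and at 739 and 989 CPM in spleen. Its log2 fold change was -2.60 with an SE of 0.91 (edgeR, adjusted p = 0.175). It passed in DESeq2 (adjusted p = 0.0430) and in limma-voom (adjusted p = 0.00431), and in edgeR once the omental library of mouse 2 was left out (adjusted p = 0.0304). Zc3h12a, whose product Regnase-1 degrades Icos and other immune transcripts, stood at 79.9 and 26.8 CPM in omental tumor and at 21.6 and 24.8 CPM in spleen.

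The directions of the members were followed over 16 other processing choices, of which 14 refit the fold changes and 2 leave them as they are. Tnfrsf4, Tnfrsf9, Tnfrsf8 and Icos kept a positive log2 fold change, above the median of all tested genes, in those 14. Cd27 and Tnfrsf25 kept a negative one, below that median, in those 14. The values ran from 1.25 to 2.53 for Tnfrsf9, from 0.97 to 2.43 for Icos, from 0.52 to 2.36 for Tnfrsf4 and from 0.22 to 1.91 for Tnfrsf8. They ran from -1.91 to -0.72 for Cd27 and from -1.63 to -0.39 for Tnfrsf25. No member passed under any of the 16, and the lowest adjusted p was 0.185, for Tnfrsf9 in DESeq2.

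**Figure D5:**
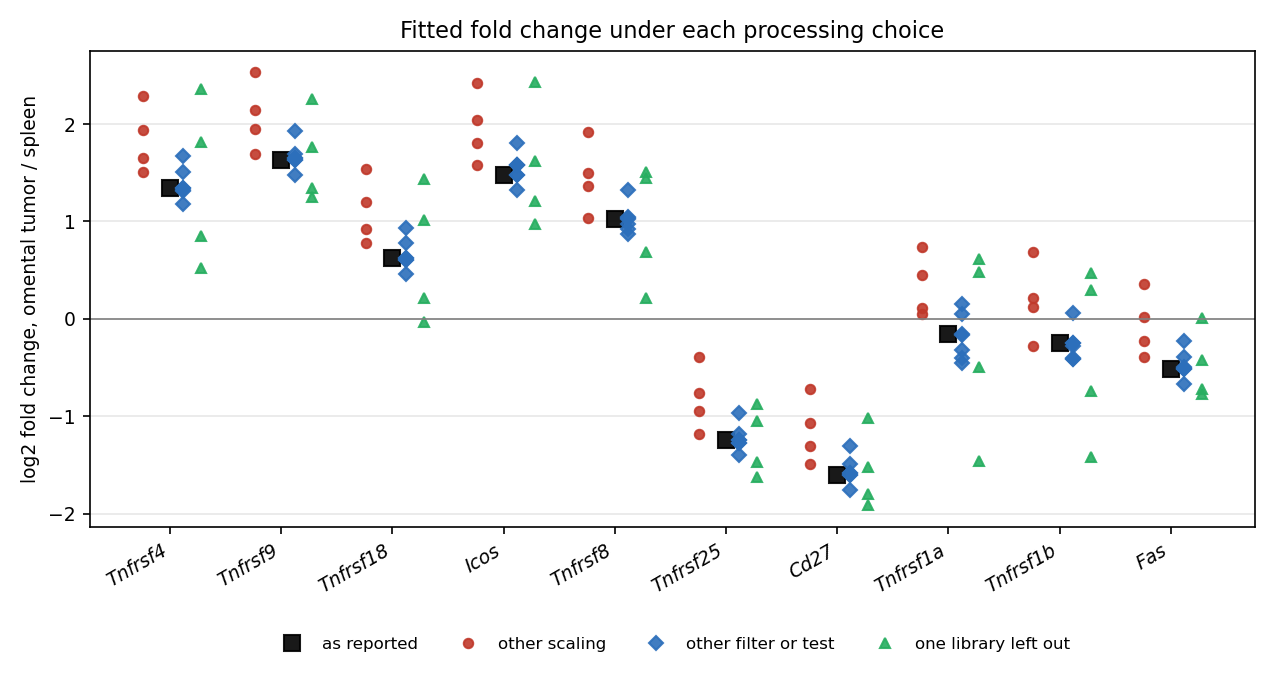
Fitted log2 fold change of each gene as reported (black squares) and under other scalings (red), other filters or tests (blue) and with 1 library left out (green). Tnfrsf4, Tnfrsf9, Icos and Tnfrsf8 stay above 0 and Cd27 and Tnfrsf25 below it, while Tnfrsf1a, Tnfrsf1b, Fas and Tnfrsf18 cross 0 under at least 1 choice.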

How the data were processed

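Sorted Tregs gave 4 libraries, 2 from omental tumors and 2 from spleen. Per the labels' protocols, total RNA was amplified with the SMART-seq v4 kit and made into libraries with Nextera XT, neither of which marks strand. The deposited values are raw read counts per gene symbol; the tools named in the submitters' processing notes are TopHat2, HTSeq, SAMtools and Trim Galore, and the build is mm10. Their versions, the annotation and the strand setting of the counting: not given in the sources used here. HTSeq's summary entries name no gene and were kept out; genes received 17.1% and 22.2% of entries in omental tumor and 24.9% and 46.0% in spleen. Counting error is larger in the shallower omental libraries, and Wilson intervals cover counting error only.

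Tests ran in edgeR 4.0.16 (R 4.3.3): filterByExpr at a minimum count of 10, TMM factors, and the quasi-likelihood test with default settings on tissue alone, over all 16322 genes, with Benjamini-Hochberg adjustment at 0.05. The SE was obtained as |log2 fold change| over the root of the F statistic. The prior degrees of freedom were infinite, so SE and p do not measure a gene's own spread. Log2 ratios within a mouse used CPM + 1. The labels give the same mouse numbers in both tissues, which was taken as pairing; deviations from tissue means correlated at 0.168 across genes. On simulated counts with known changes the fit called 2% of 2-fold, 8% of 4-fold, 28% of 8-fold and 50% of 16-fold changes. The 50 genes per fold were drawn at random from all 16322, at any level. Each gene had the spread fitted for its level, with none of its own and no pairing by mouse. These rates are therefore not rates for the members. Alternatives were other scalings, filters, DESeq2 1.42.0, limma-voom (limma 3.58.1), robust fitting, the replicate block, an adjusted p of 0.01, left-out libraries and, added after seeing the data, the fit with legacy off. Named genes were the members, the sort markers, the 4 smallest p-values of each related list, the 2 most abundant markers of each other cell type, and the 3 genes nearest in pattern to the members with the most positive and most negative fold change; 1 gene that this rule names is not reported here. The members and lists were chosen with earlier results of these data known.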

Additional observations from a re-analysis of the deposited data

How the results depend on the processing

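With 2 libraries per tissue, only large differences can pass. The count of passing members was 0 under every alternative. The count of all passing genes, 215, became 26 with library gene totals alone, 0 with T lineage counts as library size (5 of 10 members had an unadjusted p under 0.05 there), 3 at a minimum count of 50 and 358 in DESeq2, and ran from 44 to 606 with 1 library left out. With upper-quartile factors 188 were higher and 13 lower, against 178 and 37. The replicate block gave 308 genes, and it changed the calls of Tnfrsf19, S100a8, S100a9, Col3a1 and Gzma among the 55 named genes and no other. The single passing gene of the other TNF receptors became 0 with RLE, upper-quartile, library-total or T lineage scaling, at a minimum count of 50, in limma-voom, at an adjusted p of 0.01 and with any 1 library left out (0 to 0), and 2 in DESeq2 and with the replicate block. That of the ligands became 0 with the same 4 scalings, at a minimum count of 50 and at an adjusted p of 0.01, and ran from 0 to 1 with 1 library left out. The adaptors gave 2 in DESeq2 against 0, and the ICOS branch 1 in DESeq2 and in limma-voom and 0 to 1 with 1 library left out, against 0.

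Over 55 named genes and 16 alternatives, 772 of 873 values kept direction and side of the threshold, 57 no longer passed, 10 newly passed and 34 turned sign. Tnfrsf1a turned to 0.0505 with RLE, 0.44 with upper-quartile factors, 0.11 with library totals, 0.74 with T lineage scaling, 0.15 at a minimum count of 50 and 0.0519 in DESeq2. Tnfrsf1b turned to 0.22 with upper-quartile factors, 0.12 with library totals, 0.69 with T lineage scaling and 0.0630 at a minimum count of 50. Fas turned to 0.0215 with upper-quartile factors. With T lineage scaling Fas was 0.36, Cd8b1 0.15, Foxp3 0.22 and Il2ra 0.20, where the median of all genes was 0.89 (0.11 with TMM). S100a8 was -0.67 in limma-voom and Ms4a2 -0.000289 without a filter. Leaving out 1 library gave, on the log2 scale, -1.46 to 0.61 for Tnfrsf1a, -1.41 to 0.47 for Tnfrsf1b, -0.77 to 0.00359 for Fas, -0.0306 to 1.44 for Tnfrsf18, -0.42 to 4.16 for Cd70, -5.86 to 5.69 for S100a8, -2.47 to 5.83 for S100a9, -0.15 to 5.26 for Col3a1, -1.24 to 3.94 for Dcn, -0.0400 to 3.90 for Cd209a, -0.41 to 2.80 for Ms4a1, -0.80 to 1.51 for Ms4a2 and -1.38 to 1.97 for Fcer1a; the cause was not tested.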

Other observations

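The genes whose pattern over the 4 libraries was nearest to that of 2 members were sought among 5756 tested genes above 32 CPM on average, by the Euclidean distance of centred log2(CPM + 1). Nearest to Tnfrsf9 was Jak2, a kinase of cytokine receptors, at a distance of 0.131, with 138 and 103 CPM in omental tumor and 28.9 and 44.0 CPM in spleen. It was followed by the lysosomal protease gene Ctsh (0.320) and by Pcyt1a (0.349), an enzyme of phosphatidylcholine synthesis. Nearest to Cd27 was Cd226, a costimulatory receptor of T and NK cells, at a distance of 0.0945, with 34.9 and 38.5 CPM in omental tumor and 86.9 and 138 CPM in spleen. Ing4 (0.123) and the prostaglandin receptor gene Ptger2 (0.151) came next. These 6 genes were picked for their pattern, so no test is given for them.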
